A study of Mus musculus with 20 samples.

Results

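The RANKL, OPG and CSF1 axis was followed in RNA from mouse tibiae through 7 genes, chosen by name and found as 7 of the 54446 genes in the count table. They were Tnfsf11 (RANKL), Tnfrsf11a (RANK), Tnfrsf11b (osteoprotegerin, OPG), Csf1 (M-CSF), Csf1r (its receptor), Il34 (interleukin 34) and Traf6. The 20 libraries came from male C57BL/6J mice aged 3 months, in 4 groups of 5. DEX_Ctrl and DEX_Load mice received the synthetic glucocorticoid dexamethasone (DEX) at 1 mg/kg subcutaneously over 5 days, and Vehicle_Ctrl and Vehicle_Load mice received injected water over the same 5 days. In the Load groups the left tibia was compressed along its axis with a force of -13 N for 40 cycles per session, on days 1 and 3 by the labels, and the Ctrl libraries were of unloaded tibiae. The study's text describes a later last session, on the last day of treatment, with collection within hours of it, whereas the labels list no such session. Per the study's methods the unloaded tibia was the right one of the same mice, so loaded and unloaded libraries were not from separate animals, and whether the library numbers mark mice was not stated. All groups were whole pulverised tibiae, in which fewer cells of a type and less RNA per cell cannot be told apart.

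Osteoclasts, the cells that resorb bone, form from precursors of the monocyte lineage when CSF1 or interleukin 34 engages the CSF1 receptor and RANKL engages RANK. RANK signals through the adaptor TRAF6, and OPG is a secreted decoy receptor that binds RANKL and keeps it from RANK. In bone, RANKL and OPG are made by osteoblasts, osteocytes and marrow stromal cells, while RANK and the CSF1 receptor are carried by osteoclasts and their precursors, and glucocorticoids are known to alter the balance of RANKL and OPG.

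The members were placed on GRCm38. Tnfsf11 (ENSMUSG00000022015.8) is on the minus strand at chr14:78277445-78308043, Tnfrsf11a (ENSMUSG00000026321.7) on the plus strand at chr1:105780718-105847981, and Tnfrsf11b (ENSMUSG00000063727.3) on the minus strand at chr15:54250619-54278484. Csf1 (ENSMUSG00000014599.10) is on the minus strand at chr3:107741048-107760469, Il34 (ENSMUSG00000031750.15) on the minus strand at chr8:110741829-110805924, and Traf6 (ENSMUSG00000027164.8) on the plus strand at chr2:101678429-101701669. Exons of Gm15894 and Gm15895, on the opposite strand, covered 1.12% and 3.83% of the exonic length of Il34. The library kit keeps strand, but the strand setting of the counting was not given in the sources used here, so those reads may be shared.

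The 250 bases before the annotated start are shown for the ligands Tnfsf11 and Csf1 and the receptor Tnfrsf11a, to set beside their levels the start sites at which these members are transcribed. The sequences are from RefSeq (GRCm38.p6), whose table here held 4 of the 7 members. The start of Tnfrsf11a in that source lies a few bases inside the gene span given above, so the end of its window overlaps that span. Capitals mark matches to 11 short motifs searched on both strands. The windows are chr14:78308044-78308293 (minus strand), chr3:107760470-107760719 (minus strand) and chr1:105780473-105780722 (plus strand).
Tnfsf11: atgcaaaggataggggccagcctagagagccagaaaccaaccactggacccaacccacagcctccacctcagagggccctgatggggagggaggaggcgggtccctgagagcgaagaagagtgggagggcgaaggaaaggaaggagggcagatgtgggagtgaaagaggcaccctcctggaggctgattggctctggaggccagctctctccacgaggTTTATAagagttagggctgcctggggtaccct
Csf1: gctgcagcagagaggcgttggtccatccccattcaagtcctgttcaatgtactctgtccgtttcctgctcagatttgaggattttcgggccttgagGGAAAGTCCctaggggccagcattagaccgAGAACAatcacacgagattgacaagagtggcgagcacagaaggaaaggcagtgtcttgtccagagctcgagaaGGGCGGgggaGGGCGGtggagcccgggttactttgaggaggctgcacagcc
Tnfrsf11a: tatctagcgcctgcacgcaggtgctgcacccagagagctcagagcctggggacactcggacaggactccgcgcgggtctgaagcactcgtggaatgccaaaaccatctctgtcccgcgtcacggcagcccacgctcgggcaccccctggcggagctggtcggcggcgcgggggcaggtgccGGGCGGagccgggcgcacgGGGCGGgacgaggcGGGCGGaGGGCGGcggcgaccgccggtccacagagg
The Tnfsf11 window held a single match, to the TATA box letters TATAAA read on the reverse strand, from -32 to -27 relative to the start, a match found in 12.4% of 32851 promoters. The Csf1 window held the kappaB letters GGACTTTCC on the reverse strand from -154 to -146, found in 0.283% of promoters, the glucocorticoid receptor half-site AGAACA from -124 to -119, found in 16.1%, and 2 GC boxes (GGGCGG). The Tnfrsf11a window held 4 GC boxes and no other match, and 32.7% of promoters held at least 1 GC box. The other motifs searched, with no match in these 3 windows, were TGANTCA (AP-1, in 6.75% of promoters), TGACGTCA (CRE, 1.55%), AGGTCA (nuclear receptor half-site, 14.0%), AACCACA (RUNX, 4.4%), CACGTG (E-box, 6.02%), GAGGAAGT (PU.1, 2.44%) and TTCNNNGAA (STAT, 7.02%). The matches did not overlap one another, and a match is one of letters only.

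The libraries held 4641437 to 13032018 counts. DEX_Load library 4 stood apart, with the lowest total and the highest background, and DEX_Ctrl library 4 was left out of the main comparisons because the study removed a DEX library numbered 4. In the 19 libraries compared, reads on 1965 olfactory and vomeronasal receptor genes, which bone is not known to use, summed to 391 to 1364 CPM (counts scaled to a common library size and for composition by the TMM method) in Vehicle_Ctrl, 261 to 932 in Vehicle_Load, 800 to 2918 in DEX_Ctrl and 1097 to 6494 in DEX_Load, the last value being library 4. In the loaded libraries this background was higher in every DEX library than in every vehicle library, so treatment and background cannot be told apart there. Osteoclast, osteoblast and osteocyte markers were present in every group, with no gene of these lists at 0 in any of them, and the 4 skin keratinocyte markers together reached at most 15.1 CPM. Their sum was 4.41 to 15.1 CPM in DEX_Load against 0.684 to 3.36 in Vehicle_Load, with no overlap, and of the 2 tested there Krt1 rose (log2 fold change 2.54, edgeR adjusted p = 0.0204). Of 5 genes known to be induced by glucocorticoids, Fkbp5 rose in DEX_Load against Vehicle_Load (log2 fold change 0.87, SE 0.17, edgeR adjusted p = 0.00777), as did Zbtb16 (1.01, SE 0.21, edgeR adjusted p = 0.0093), whereas Tsc22d3, Per1 and Sgk1 did not pass there. In DEX_Ctrl against Vehicle_Ctrl, Sgk1 fell by 0.63 on the log2 scale (SE 0.15, edgeR adjusted p = 0.0318) and Fkbp5 had a log2 fold change of 0.81 (SE 0.24, edgeR adjusted p = 0.0603).

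Per kilobase of exon, the levels of the axis in Vehicle_Ctrl ran from Csf1r at 20.8 ± 4.51 CPM per kb (SD, n = 5) through Tnfrsf11b at 17.0 ± 4.61, Csf1 at 9.48 ± 2.00, Traf6 at 4.24 ± 0.388, Il34 at 3.29 ± 0.600 and Tnfrsf11a at 1.92 ± 0.240 to Tnfsf11 at 1.75 ± 0.735. Neighbours in that order overlapped in their library ranges except Csf1 above Traf6 and Il34 above Tnfrsf11a. In DEX_Load the order of means was Csf1r (21.0 ± 4.76 CPM per kb, n = 5), Csf1 (9.63 ± 1.95), Tnfrsf11b (6.74 ± 2.43), Il34 (5.23 ± 1.70), Traf6 (3.82 ± 0.452), Tnfrsf11a (2.31 ± 0.618) and Tnfsf11 (1.92 ± 0.598), with Csf1r alone clear of its neighbour. Tnfrsf11b thus stood above Csf1 in mean level per kb in Vehicle_Ctrl and below it in the other 3 groups, and the ranges of these 2 genes overlapped in every group.

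**Figure D1:**
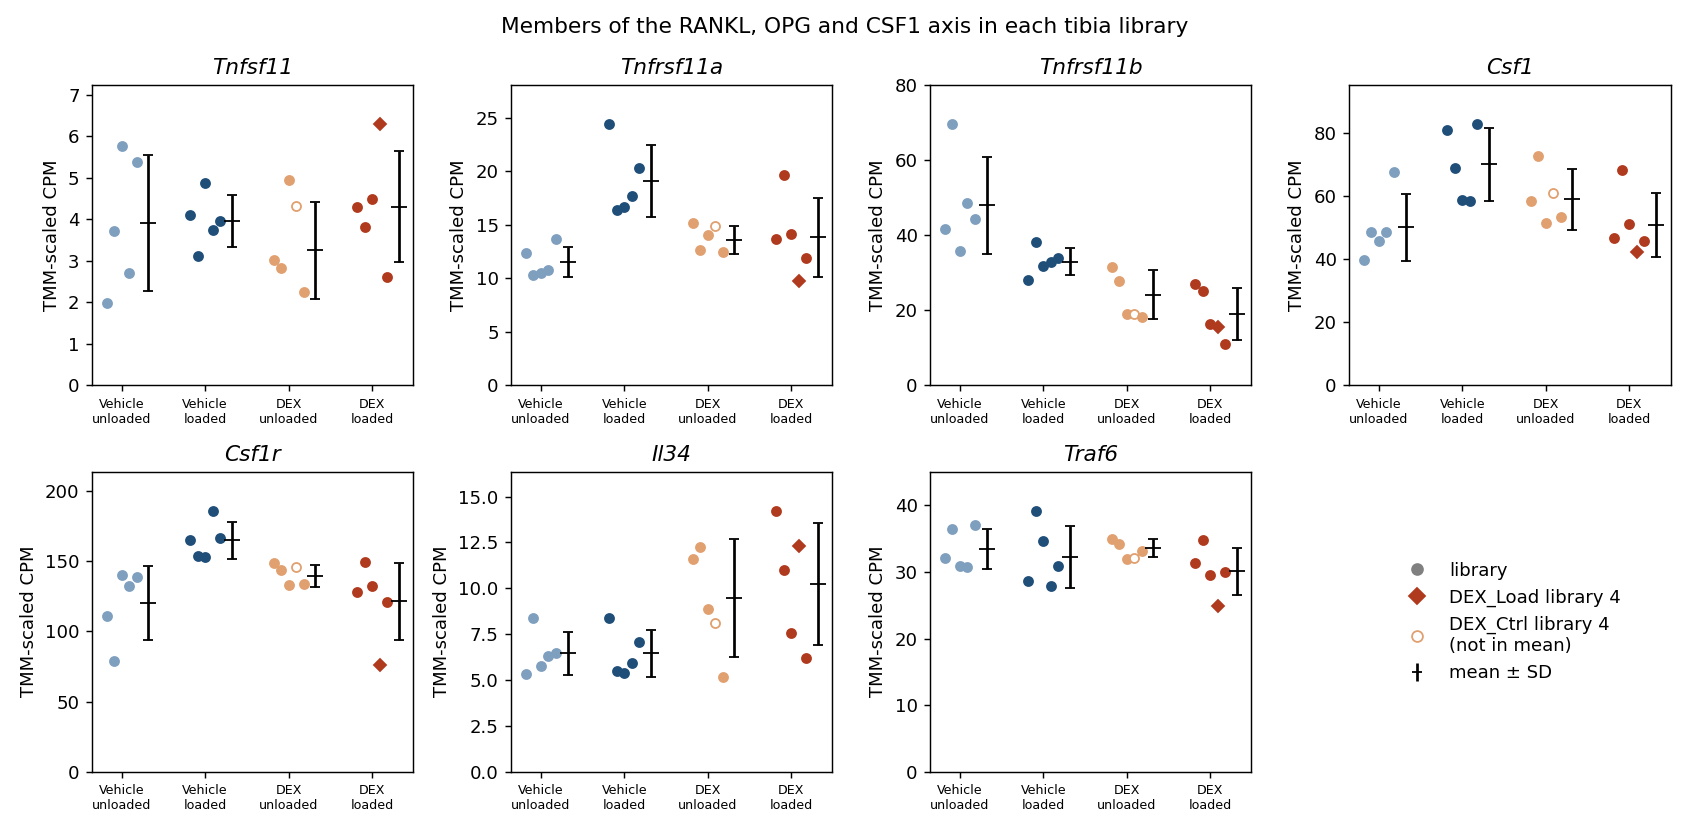
TMM-scaled counts (CPM, vertical axes from 0) of the 7 genes in each library of the 4 groups, with group mean ± SD as black bars; the open circle is DEX_Ctrl library 4, which is not in the mean, and the diamond is DEX_Load library 4. The DEX libraries of Tnfrsf11b all lie below the vehicle libraries of the same loading state, and every Vehicle_Load library of Tnfrsf11a lies above every Vehicle_Ctrl library.

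Across the 4 comparisons and their interaction, Tnfrsf11b was the only one of the 7 genes that passed an edgeR quasi-likelihood test adjusted over all genes, and it fell with DEX in both unloaded and loaded tibiae. Loading in vehicle gave 0 of 7 members at an adjusted p under 0.05 (0.0% of 17982 genes tested), 4 of 7 at an unadjusted p under 0.05 (9.86% of genes) and 1 of 7 by DESeq2 (0.795%). Loading in DEX gave 0 of 7 by edgeR (0.0% of 22541 genes), 0 of 7 by DESeq2 (0.0%) and 0 of 7 at an unadjusted p under 0.05 (4.25%), and none of the 7 had groups that did not overlap (1.25% of genes). DEX in loaded tibiae gave 1 of 7 by edgeR (21.3% of 19780 genes), 4 of 7 by DESeq2 (28.6%) and 5 of 7 unadjusted (37.2%), and DEX in unloaded tibiae gave 1 of 7 by edgeR (6.84% of 19738 genes), 1 of 7 by DESeq2 (12.0%) and 2 of 7 unadjusted (24.6%). The interaction, which asks whether the loading change differed between treatments, gave 0 of 7 by edgeR (0.0% of 23653 genes), 0 of 7 by DESeq2 (0.211%) and 3 of 7 unadjusted (12.1%). The edgeR share for DEX in loaded tibiae was above that of the axis, so 1 call of 7 there is near the background.

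**Figure D2:**
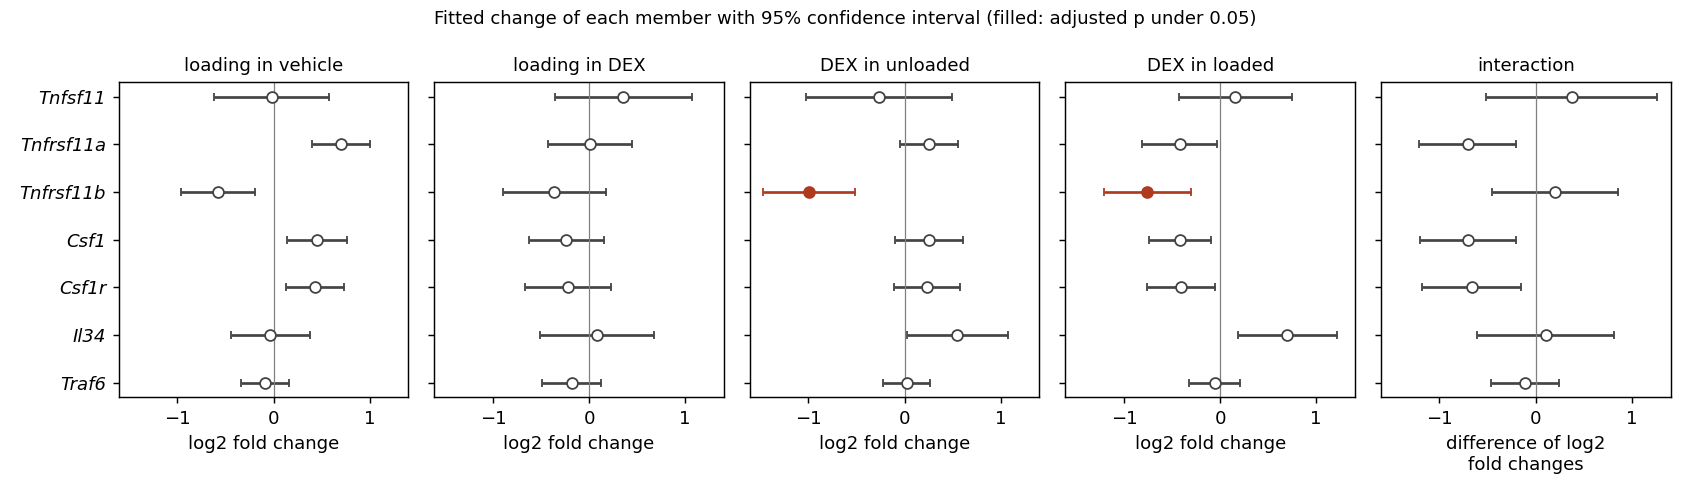
Fitted log2 fold change of each gene (horizontal axis) with its 95% confidence interval in the 4 comparisons, and in the rightmost panel the difference between the loading changes of DEX and vehicle mice; filled points passed an edgeR adjusted p of 0.05. The filled points are both Tnfrsf11b, at -0.99 in unloaded and -0.76 in loaded tibiae.

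Tnfsf11, the osteoclast-forming ligand, had the lowest mean per kb in every group, with library ranges that overlapped those of Tnfrsf11a in 3 of the 4, and no comparison of it passed the test. Its CPM in Vehicle_Ctrl libraries 1, 2, 4, 5 and the unnumbered one was 1.99, 3.71, 5.76, 2.7 and 5.39, resting on 15 to 55 counts. In Vehicle_Load, in the same order, it was 4.10, 3.13, 4.88, 3.75 and 3.97 CPM. In DEX_Ctrl libraries 1, 2, 3 and 5 it was 3.02, 2.82, 4.94 and 2.25 CPM, and in DEX_Load libraries 1 to 5 it was 4.29, 3.82, 4.49, 6.30 and 2.60. Every pair of groups overlapped, and the highest value was in the library with the highest background. The log2 fold change was -0.02 (95% confidence interval -0.62 to 0.58) for loading in vehicle and 0.36 (-0.36 to 1.07) for loading in DEX. With DEX it was 0.16 (-0.43 to 0.74) in loaded and -0.27 (-1.03 to 0.50) in unloaded tibiae. With background reads as a covariate both values turned sign, to -0.50 (edgeR adjusted p = 0.656) in loaded and 0.02 (edgeR adjusted p = 0.978) in unloaded tibiae. The background level multiplied by exon length came to 38.8% of the Tnfsf11 CPM in DEX_Load library 4, and to 2.47% to 9.08% in Vehicle_Load. In unloaded tibiae that share was 11.3% to 36.4% in DEX_Ctrl and 2.73% to 25.8% in Vehicle_Ctrl.

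Tnfrsf11b, the secreted decoy for RANKL, fell with DEX by 0.99 on the log2 scale in unloaded tibiae (SE 0.22, edgeR adjusted p = 0.0236, DESeq2 adjusted p = 0.00107) and by 0.76 in loaded tibiae (SE 0.21, edgeR adjusted p = 0.0245, DESeq2 adjusted p = 0.00731). Its CPM was 41.6, 69.7, 35.7, 48.7 and 44.2 in Vehicle_Ctrl libraries 1, 2, 4, 5 and unnumbered, and 31.5, 27.7, 19.02 and 18.2 in DEX_Ctrl libraries 1, 2, 3 and 5. In Vehicle_Load it was 28.2, 38.2, 31.8, 32.8 and 33.9 CPM, and in DEX_Load libraries 1 to 5 it was 27.1, 25.1, 16.4, 15.6 and 10.8. The groups did not overlap in either DEX comparison, a separation that 10.8% of genes tested had in unloaded tibiae and 16.5% in loaded tibiae. Within both DEX groups, libraries 1 and 2 were high and libraries 3 and 5 low. DEX_Ctrl library 4, outside these comparisons, was at 19.1 CPM.

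The unloaded call did not pass without Vehicle_Ctrl library 5 (edgeR adjusted p = 0.0598) or without DEX_Ctrl library 3 (edgeR adjusted p = 0.0994). The loaded call did not pass without DEX_Load library 3 (edgeR adjusted p = 0.0556), with at least 10 counts required in every library (edgeR adjusted p = 0.0506) or with background reads as a covariate (log2 fold change -0.70, edgeR adjusted p = 0.439), and passed without DEX_Load library 4 (edgeR adjusted p = 0.0488). In unloaded tibiae with that covariate Tnfrsf11b fell by 1.2 on the log2 scale (edgeR adjusted p = 0.00745). With loading, the log2 fold change of Tnfrsf11b was -0.58 (95% confidence interval -0.97 to -0.20, edgeR adjusted p = 0.361) in vehicle and -0.36 (-0.90 to 0.17, edgeR adjusted p = 0.733) in DEX, and neither passed. Between libraries of the same number, its CPM was lower in the loaded one for every number compared, in vehicle and in DEX. With a replicate block neither loading comparison passed, and whether the numbers mark mice was not stated.

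Markers of bone-forming cells moved beside Tnfrsf11b. The summed CPM of 8 osteoblast markers ranged from 41815 to 145241 in Vehicle_Ctrl and from 64500 to 96059 in Vehicle_Load, against 7483 to 36323 in DEX_Ctrl and 5018 to 24147 in DEX_Load. With DEX, 4 of these 8 genes fell in unloaded and 6 of 8 in loaded tibiae, with median log2 fold changes of -1.21 and -1.32 beside medians of 0.03 and 0.00 over all genes tested, of which 6.84% and 21.3% were called. Against the same shares, 4 of 7 osteocyte markers tested fell in unloaded tibiae, and in loaded tibiae 6 of 8 fell and 1 rose. Of the 8 marrow stroma and adipocyte markers none was called by edgeR or DESeq2 in either state, where 1 had an unadjusted p under 0.05 in each, with medians of 0.01 in unloaded and -0.25 in loaded tibiae. An unadjusted edgeR p under 0.05 was found for 24.6% of all genes in unloaded and 37.2% in loaded tibiae. Of the 8 B lineage markers 3 fell in unloaded and 7 in loaded tibiae by edgeR (medians -1.30 and -1.67), beside all-gene shares of 6.84% and 21.3%. By DESeq2, 7 of them fell in unloaded and 8 in loaded tibiae, beside 12.0% and 28.6% of all genes called. A difference between states was not tested. The chondrocyte markers tested had medians of -0.25 and -3.23. The part of these shifts in the Tnfrsf11b result was not tested.

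The Tnfsf11 to Tnfrsf11b ratio compares the count of the ligand with that of its decoy within each library. In Vehicle_Ctrl libraries 1, 2, 4, 5 and unnumbered it was 0.0478, 0.0533, 0.161, 0.0556 and 0.122, and in Vehicle_Load, in the same order, 0.146, 0.0818, 0.154, 0.114 and 0.117. In DEX_Ctrl libraries 1, 2, 3 and 5 it was 0.0958, 0.102, 0.260 and 0.124, and in DEX_Load libraries 1 to 5 it was 0.158, 0.152, 0.275, 0.404 and 0.240. All groups overlapped in adjacent values, with DEX_Load reaching furthest up and Vehicle_Ctrl furthest down. Group means were 0.0880 ± 0.0510 (SD, n = 5) in Vehicle_Ctrl, 0.122 ± 0.0285 (n = 5) in Vehicle_Load, 0.145 ± 0.0773 (n = 4) in DEX_Ctrl and 0.246 ± 0.103 (n = 5) in DEX_Load.

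**Figure D3:**
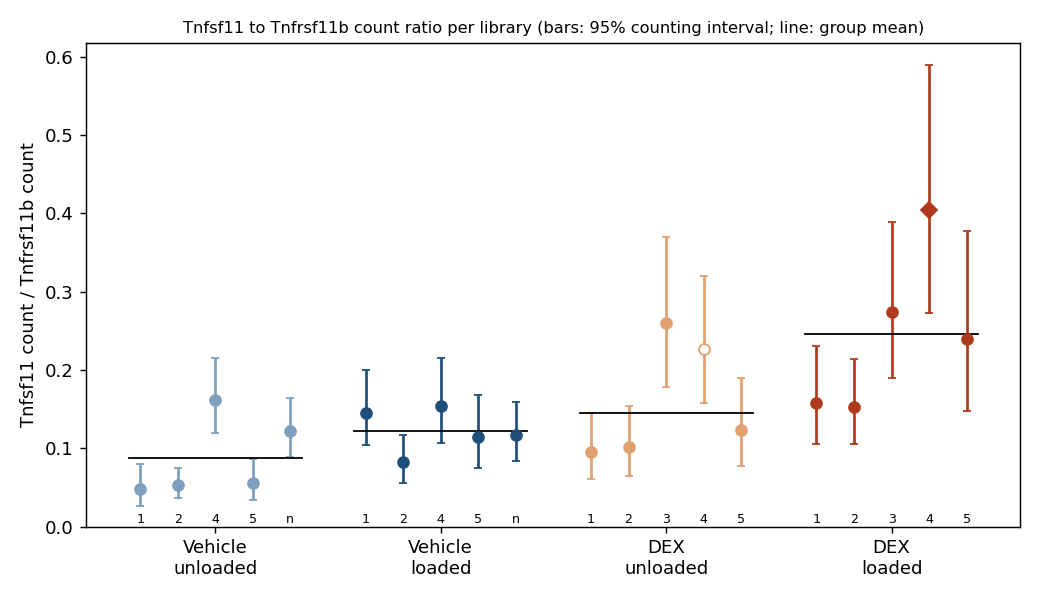
Ratio of the Tnfsf11 count to the Tnfrsf11b count in each library (vertical axis, from 0), with the library number below each point (n, unnumbered), exact (Clopper-Pearson) 95% counting intervals as bars and the group mean as a line; the open circle is DEX_Ctrl library 4 and the diamond DEX_Load library 4. The DEX_Load libraries lie between 0.152 and 0.404, and Vehicle_Load library 4, at 0.154, lies within that range.

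In exact two-sided permutation tests over libraries, adjusted over the 4 comparisons, no difference in the log2 ratio passed. The DEX difference in loaded tibiae was 0.94 log2 units, a fold of 1.92 in geometric mean (exact permutation p = 0.0159, adjusted p = 0.0635), where 5 against 5 libraries can reach 0.00794. Without DEX_Load library 4 that difference was 0.74 (exact permutation adjusted p = 0.127), and with background reads subtracted from both counts, an alternative chosen after seeing the data, it was 0.74 (adjusted p = 0.143 by the exact permutation test). The DEX difference in unloaded tibiae was 0.78 (exact permutation p = 0.143, adjusted p = 0.143), that of loading in vehicle 0.62 (exact permutation p = 0.143, adjusted p = 0.143) and that of loading in DEX 0.78 (exact permutation p = 0.111, adjusted p = 0.143). Between DEX libraries of the same number (1, 2, 3 and 5) the ratio was higher in each of the 4 loaded ones, by 0.58 log2 units in mean, where an exact permutation test of 4 pairs cannot go below 0.125. In vehicle mice it was higher in the loaded library for 3 of 4 numbers, by 0.79 in mean, and lower for number 4 and for the unnumbered libraries. The loading differences in DEX and vehicle mice differed by 0.16 log2 units, a value with no test whose sign was not stable: it was -0.21 between same-numbered libraries, -0.19 with DEX_Load library 4 left out in place of DEX_Ctrl library 4, and -0.10 to 0.48 when each library was left out. The counting interval of a single ratio was wide: it ran from 0.0264 to 0.0800 in Vehicle_Ctrl library 1, with 15 Tnfsf11 and 314 Tnfrsf11b counts, and from 0.273 to 0.589 in DEX_Load library 4, with 40 and 99, and such intervals cover counting error only.

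Tnfrsf11a, the receptor for RANKL, was higher in each Vehicle_Load library than in any Vehicle_Ctrl library. Its CPM was 12.3, 10.3, 10.5, 10.8 and 13.6 in Vehicle_Ctrl libraries 1, 2, 4, 5 and unnumbered and 24.4, 16.4, 16.6, 17.7 and 20.4 in Vehicle_Load, in the same order. Such a separation was found for 1.33% of genes in this comparison. The log2 fold change was 0.70 (SE 0.14, 95% confidence interval 0.40 to 1.01), which did not pass by edgeR (adjusted p = 0.179) but passed by DESeq2 (adjusted p = 0.00591). In DEX_Ctrl libraries 1, 2, 3 and 5 it was 15.2, 12.6, 14.1 and 12.5 CPM, and in DEX_Load libraries 1 to 5 it was 13.7, 19.7, 14.1, 9.76 and 11.9, so the DEX groups overlapped.

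With loading in DEX mice the log2 fold change of Tnfrsf11a was 0.01 (95% confidence interval -0.43 to 0.45). With DEX it was -0.42 (SE 0.18, edgeR adjusted p = 0.109, DESeq2 adjusted p = 0.104) in loaded tibiae and 0.25 (SE 0.14, edgeR adjusted p = 0.284) in unloaded tibiae. Without DEX_Load library 2, the highest of its group, the loaded value was -0.61 and passed (edgeR adjusted p = 0.0215), in a joint fit of the 4 groups it was -0.51 and passed (edgeR adjusted p = 0.0250), and with background reads as a covariate it was 0.05 (edgeR adjusted p = 0.965). In DEX_Load library 4 the background level multiplied by the exon length of Tnfrsf11a came to 67.0% of its CPM, against 5.62% in the lowest DEX_Load library and 1.29% to 5.65% in Vehicle_Load. The loading changes in DEX and vehicle mice differed by -0.71 log2 units (95% confidence interval -1.22 to -0.20), which did not pass (edgeR adjusted p = 0.366, DESeq2 adjusted p = 0.225).

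Traf6, the adaptor that carries the RANK signal, did not pass the test in any comparison. It ranged from 30.8 to 37.1 CPM in Vehicle_Ctrl, from 27.9 to 39.2 in Vehicle_Load, from 32.0 to 35.0 in DEX_Ctrl and from 24.9 to 34.8 in DEX_Load, the lowest value being library 4. All groups overlapped. Its fitted log2 fold changes lay between -0.18 for loading in DEX (95% confidence interval -0.49 to 0.13) and 0.02 for DEX in unloaded tibiae (-0.23 to 0.27).

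Csf1, the growth factor for osteoclast precursors, did not pass an edgeR test in any comparison. Its CPM was 39.6, 48.6, 45.8, 48.7 and 67.8 in Vehicle_Ctrl libraries 1, 2, 4, 5 and unnumbered and 81.1, 68.8, 58.8, 58.6 and 82.9 in Vehicle_Load, where the unnumbered Vehicle_Ctrl library alone reached into the loaded range. In DEX_Ctrl libraries 1, 2, 3 and 5 it was 58.5, 72.9, 51.5 and 53.3 CPM, and in DEX_Load libraries 1 to 5 it was 46.6, 68.3, 51.3, 42.2 and 45.8, with overlap. The log2 fold change with loading was 0.45 (SE 0.15, edgeR adjusted p = 0.386) in vehicle and -0.24 (SE 0.18, edgeR adjusted p = 0.733) in DEX, a difference of -0.70 (95% confidence interval -1.20 to -0.21, edgeR adjusted p = 0.366). With DEX it was -0.42 in loaded tibiae (SE 0.15, edgeR adjusted p = 0.0616, DESeq2 adjusted p = 0.0355) and 0.25 in unloaded tibiae (SE 0.16, edgeR adjusted p = 0.363). The loaded value passed by edgeR without Vehicle_Load library 4 (adjusted p = 0.0424), Vehicle_Load library 5 (adjusted p = 0.0433) or DEX_Load library 2 (adjusted p = 0.0140) and in a joint fit of the 4 groups (adjusted p = 0.0237), and was 0.07 with background reads as a covariate (adjusted p = 0.935).

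Csf1r, the receptor shared by CSF1 and interleukin 34, had the highest mean per kb in every group. The gene (ENSMUSG00000024621.15) lies on the plus strand at chr18:61100598-61132149 (GRCm38), and exons of Hmgxb3, on the opposite strand, cover 15.1% of its exonic length. Its CPM was 111, 78.7, 141, 132 and 139 in Vehicle_Ctrl libraries 1, 2, 4, 5 and unnumbered and 165, 154, 153, 186 and 167 in Vehicle_Load, so that each loaded library lay above each unloaded one. In DEX_Ctrl libraries 1, 2, 3 and 5 it was 149, 144, 133 and 134 CPM, and in DEX_Load libraries 1 to 5 it was 128, 149, 133, 75.9 and 121, each below each Vehicle_Load library. Together with Tnfrsf11a, 2 of 7 members did not overlap with loading in vehicle (1.33% of all genes), and together with Tnfrsf11b, 2 of 7 did not overlap with DEX in loaded tibiae (16.5% of all genes). The log2 fold change was 0.43 with loading in vehicle (SE 0.14, edgeR adjusted p = 0.387, DESeq2 adjusted p = 0.19) and -0.22 with loading in DEX (SE 0.21, edgeR adjusted p = 0.733). With DEX it was -0.41 in loaded tibiae (SE 0.16, edgeR adjusted p = 0.0909, DESeq2 adjusted p = 0.0433), and 0.23 in unloaded tibiae (SE 0.16, edgeR adjusted p = 0.380). The loaded value was -0.52 and passed without DEX_Load library 2 (edgeR adjusted p = 0.0463), was -0.48 and passed in a joint fit of the 4 groups (edgeR adjusted p = 0.0334), and was -0.29 without DEX_Load library 4 (edgeR adjusted p = 0.0899) and -0.13 with background reads as a covariate (edgeR adjusted p = 0.892). The interaction was -0.67 (95% confidence interval -1.18 to -0.15, edgeR adjusted p = 0.384).

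Il34, the alternative ligand of the CSF1 receptor, was at a mean of 6.45 CPM in both vehicle groups and higher in mean, with a wider spread, in both DEX groups. It was 5.30, 8.38, 5.76, 6.31 and 6.49 CPM in Vehicle_Ctrl libraries 1, 2, 4, 5 and unnumbered and 8.39, 5.47, 5.38, 5.95 and 7.07 in Vehicle_Load. In DEX_Ctrl libraries 1, 2, 3 and 5 it was 11.6, 12.3, 8.89 and 5.15, and in DEX_Load libraries 1 to 5 it was 14.2, 11.0, 7.59, 12.3 and 6.18. All groups overlapped, and library 5 was the lowest in both DEX groups. The log2 fold change with DEX was 0.70 in loaded tibiae (SE 0.24, edgeR adjusted p = 0.0527, DESeq2 adjusted p = 0.0345) and 0.55 in unloaded tibiae (SE 0.24, edgeR adjusted p = 0.187). The loaded value passed by edgeR without DEX_Load library 5 (adjusted p = 0.0271), without DEX_Load library 3 (adjusted p = 0.0458) or with at least 10 counts required in every library (adjusted p = 0.0429), and was 0.49 with background reads as a covariate (adjusted p = 0.693). With loading it was -0.03 (95% confidence interval -0.44 to 0.38) in vehicle and 0.08 (-0.51 to 0.68) in DEX.

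Further genes of the axis were counted in 5 lists of 73 genes, 71 of them tested in every comparison. None of the 71 passed with loading in vehicle, with loading in DEX or in the interaction, by edgeR or by DESeq2, while 10, 1 and 6 of them had an unadjusted edgeR p under 0.05. Over all genes tested, 9.86%, 4.25% and 12.1% had such an unadjusted p in the same order. With DEX in loaded tibiae 13 of 71 fell and 1 rose, near the 21.3% called among all genes, and with DEX in unloaded tibiae 3 fell and 5 rose, where 6.84% of all genes were called. The 2 DEX comparisons use different control libraries of the same mice.

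Of the 7 partners and shedding enzymes of RANKL and OPG, 3 fell with DEX in loaded tibiae and 1 in unloaded tibiae (median log2 fold change -0.30 and -0.19), beside 21.3% and 6.84% of all genes called. Mmp14, a membrane metalloproteinase that sheds RANKL, fell by 1.86 on the log2 scale in loaded tibiae (SE 0.27, edgeR adjusted p = 0.00163), from 459 ± 154 CPM (SD, n = 5) in Vehicle_Load to 123 ± 39.4 CPM (n = 5) in DEX_Load. Sdc1, a heparan sulphate proteoglycan that can bind OPG, fell by 0.92 there (SE 0.17, edgeR adjusted p = 0.00469). Of the 14 regulators of Tnfsf11 and Tnfrsf11b transcription, 4 fell and 1 rose in loaded tibiae. Pth1r, the parathyroid hormone receptor, fell by 1.22 (SE 0.20, edgeR adjusted p = 0.00306), and Vdr, the vitamin D receptor, fell by 0.94 in loaded tibiae (SE 0.15, edgeR adjusted p = 0.00234) and by 0.87 in unloaded tibiae (SE 0.20, edgeR adjusted p = 0.0278). Ptger2, a prostaglandin E2 receptor, rose by 1.04 log2 units in loaded tibiae (SE 0.18, edgeR adjusted p = 0.00358) and by 1.03 in unloaded tibiae (SE 0.23, edgeR adjusted p = 0.0248).

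Of the 22 RANK signalling genes, 4 fell with DEX in loaded tibiae (median log2 fold change -0.18) and 1 rose in unloaded tibiae (median 0.09), shares below the 21.3% and 6.84% of all genes. Of the 16 genes of osteoclast transcription and co-stimulation, none passed in loaded tibiae by edgeR, where 3 had an unadjusted p under 0.05 and 1 passed by DESeq2. Over all genes there, 37.2% had an unadjusted edgeR p under 0.05 and 28.6% passed by DESeq2. In unloaded tibiae 1 of the 16 rose: Spi1, which encodes the myeloid transcription factor PU.1, by 0.91 (SE 0.19, edgeR adjusted p = 0.0210). Of the 12 CSF1 receptor pathway genes tested, 2 fell in loaded tibiae, and 2 rose and 1 fell in unloaded tibiae. Ptprz1, a receptor phosphatase that binds interleukin 34, fell by 0.84 in loaded tibiae (SE 0.23, edgeR adjusted p = 0.0226) and by 0.85 in unloaded tibiae (SE 0.22, edgeR adjusted p = 0.0375). Csf2rb, the common beta chain of the GM-CSF receptor, rose by 1.04 in unloaded tibiae (SE 0.23, edgeR adjusted p = 0.0234), as did Csf3r, the G-CSF receptor, by 0.90 (SE 0.20, edgeR adjusted p = 0.0218). Neutrophil markers were higher beside them: 6 of 8 rose with DEX in unloaded and 7 of 8 in loaded tibiae (median log2 fold change 1.05 and 1.02). In unloaded tibiae they summed to 4844 to 7029 CPM in Vehicle_Ctrl and 8590 to 15697 in DEX_Ctrl, and their part in these changes was not tested.

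**Figure D4:**
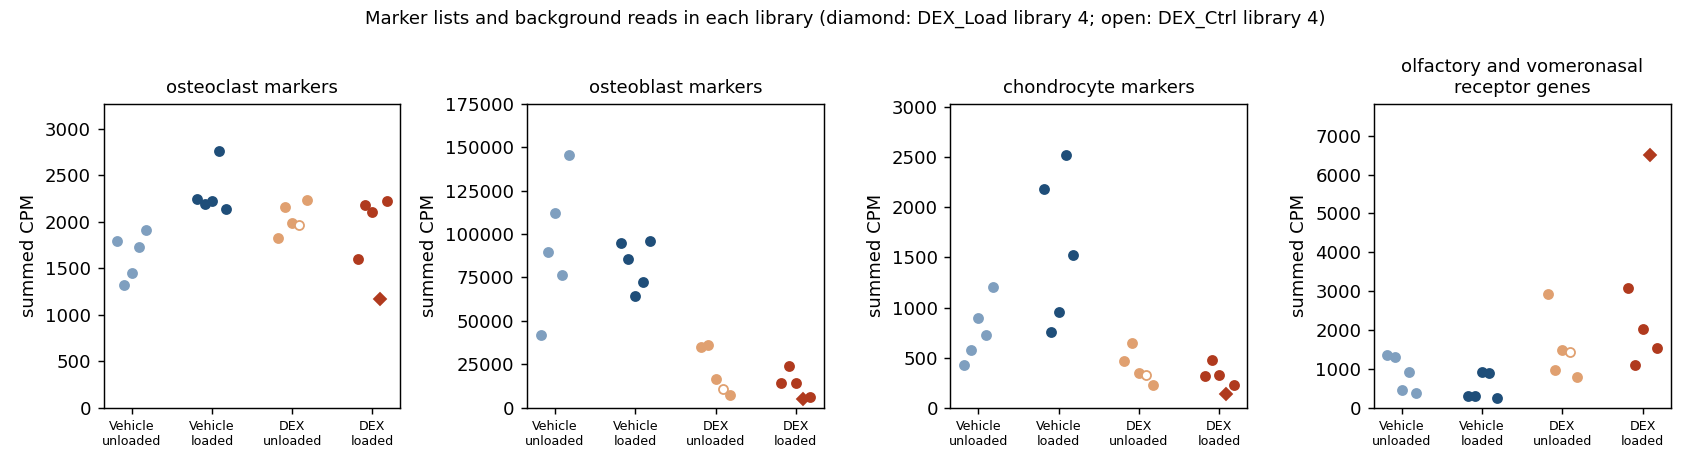
Summed TMM-scaled CPM (vertical axes from 0) of the osteoclast, osteoblast and chondrocyte marker lists and of the olfactory and vomeronasal receptor genes in each library of the 4 groups; the diamond is DEX_Load library 4 and the open circle DEX_Ctrl library 4. Osteoclast markers sum to 1322 to 1910 CPM in Vehicle_Ctrl and 2136 to 2765 in Vehicle_Load, and the receptor genes reach 6494 CPM in DEX_Load library 4.

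Markers of osteoclasts and of monocytes and macrophages were counted beside Tnfrsf11a and Csf1r, and those of chondrocytes and skeletal muscle were counted as other tissues. The 10 osteoclast markers summed to 1322 to 1910 CPM in Vehicle_Ctrl and 2136 to 2765 in Vehicle_Load, which did not overlap, and to 1820.5 to 2230 in DEX_Ctrl and 1175 to 2221 in DEX_Load. Their median log2 fold change with loading in vehicle was 0.60, with 0 of 10 called by edgeR, 8 at an unadjusted p under 0.05 and 2 by DESeq2, beside 0.0%, 9.86% and 0.795% of all genes and a median of 0.00 over them. With loading in DEX the median was -0.18 with 0 of 10 called by edgeR or DESeq2 and 0 at an unadjusted p under 0.05. The 9 monocyte and macrophage markers summed to 508 to 688 CPM in Vehicle_Ctrl, 685 to 759 in Vehicle_Load, 593 to 846 in DEX_Ctrl and 395 to 767 in DEX_Load, with a median log2 fold change of 0.23 with loading in vehicle and -0.28 with loading in DEX. The 10 chondrocyte markers had a median log2 fold change of 1.74 with loading in vehicle over the 8 tested, of which 4 passed by DESeq2 and none by edgeR, while 6 had an unadjusted edgeR p under 0.05. With DEX, 3 of 10 osteoclast markers fell in loaded tibiae (median log2 fold change -0.44), near the 21.3% of all genes called, and 1 rose in unloaded tibiae (0.33), beside 6.84%. With DEX, 8 of the 9 chondrocyte markers tested fell in loaded tibiae (-3.23) against 0 of 8 by edgeR in unloaded tibiae, where 2 had an unadjusted p under 0.05 and 1 passed by DESeq2. Of the monocyte and macrophage markers, 2 fell and 1 rose with DEX in loaded tibiae and 2 rose in unloaded tibiae. The 7 skeletal muscle markers had loading changes with medians of opposite sign in vehicle and DEX mice. They summed to 8189 to 36353 CPM (median 28692) in Vehicle_Ctrl and 3906 to 19320 (median 10123) in Vehicle_Load, and to 2388 to 17218 (median 3913) in DEX_Ctrl and 7479 to 21787 (median 16076) in DEX_Load, with overlap in both treatments. Their median log2 fold change was -1.09 with loading in vehicle, with 2 of 7 at an unadjusted p under 0.05, and 1.19 with loading in DEX, with 3 of 7. The interaction had a median of 2.30 with 7 of 7, and 0 of 7 passed in these comparisons by edgeR or DESeq2. Over all genes, 9.86%, 4.25% and 12.1% had an unadjusted edgeR p under 0.05 in the same order. With DEX the median was -1.81 in unloaded tibiae, with 6 of 7 at an unadjusted p under 0.05, 0 by edgeR and 1 lower by DESeq2, and 0.50 in loaded tibiae, where 1 rose. Among all genes, 24.6% had an unadjusted edgeR p under 0.05 with DEX in unloaded tibiae, and 12.0% were called by DESeq2 there. The part of any of these lists in the values of Tnfrsf11a, Csf1 and Csf1r was not tested.

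Across the 19 libraries, Tnfrsf11a, Csf1 and Csf1r kept a similar order of levels, with Spearman correlations of log2 CPM of 0.84 between Tnfrsf11a and Csf1r, 0.83 between Csf1 and Csf1r and 0.78 between Tnfrsf11a and Csf1, as a description over libraries that share group, mouse and background. Tnfsf11 and Tnfrsf11b had a correlation of -0.12. Among 9916 protein-coding genes with a mean of at least 10 CPM, those most like Tnfrsf11b were Sema3d (0.97), Shox2 (0.96) and Bglap2 (0.96), and those most like Tnfrsf11a were Slc37a2 (0.87), Csf1r (0.84) and Sfrp1 (0.83). Among those nearest to Csf1r were Adcy3 (0.92) and Ehmt2 (0.89), and nearest to Csf1 were Mrc1 (0.87), Ctdp1 (0.87) and Tns3 (0.85). The highest values for Tnfsf11 were lower, at 0.77 for Ocel1, 0.75 for Tmem260 and 0.73 for Nav2, for Il34 they were 0.81 for Usp30, 0.78 for Ptgfr and 0.76 for Lyve1, and for Traf6 0.83 for Nemp2, 0.83 for Yod1 and 0.83 for Dcaf12.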

How the data were processed

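Total RNA of whole tibiae was sequenced from 20 libraries in 4 groups of 5. The authors deposited expected counts per gene, not normalised, for 54446 genes; per the submitters' processing notes STAR 2.7.10a, RSEM 1.2.28 and GRCm38 were used, and the annotation release is not given in the sources used here. Between 10.6% and 14.0% of all values in a library, zeros included, were not whole, and all were rounded. Of the gene identifiers, 54409 matched GENCODE M21 without their version, which gave symbols, positions and exon lengths.

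Genes were filtered (filterByExpr), scaled by TMM and tested with the edgeR 4.0.16 quasi-likelihood F test in R 4.3.3, on the groups compared alone, with Benjamini-Hochberg adjustment over all genes tested and a threshold of 0.05. SEs were the absolute log2 fold change over the square root of F. The log2 Tnfsf11 to Tnfrsf11b ratio (0.5 added to both counts) was tested by exact two-sided permutation (SciPy 1.17.1). DEX_Ctrl library 4 was left out because the study's text removes "DEX-4" without saying which tibia, and its plots show 4 unloaded DEX values. Alternatives were DESeq2 1.42.0, its size factors, other filters, a background covariate, a joint fit of the 4 groups, all 20 libraries, a replicate block, and each library left out. The test was checked on simulated counts. Exact intervals of the ratio (Clopper-Pearson, 95%) cover counting error only.

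The members and gene lists were chosen with earlier results of these data known. Named were the 7 members, up to 6 called pathway genes per comparison with the largest change, 5 glucocorticoid-induced genes, and the 3 genes most like each member, of which 1 is not reported here. Marker lists named in no result had these counts of called genes, higher then lower, with DEX in loaded and then in unloaded tibiae: T cell 0 and 0 in both; erythroid 0 and 0 in both. The libraries are separate samples by label, and p-values measure the spread between them. In the main loading and interaction fits, the joint fit and the permutation tests of loading, tibiae of the same mouse were treated as independent. The sample labels number each group 1 to 5, but in each vehicle group the count table has a column numbered 6 and none numbered 3. No label carries that number, so the column was assigned to its group alone and is called unnumbered.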

Additional observations from a re-analysis of the deposited data

Results flagged for a closer look

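A single value stood far from the others of its group. The Tnfsf11 to Tnfrsf11b ratio of DEX_Ctrl library 3 was 0.260, the next library of its group was at 0.124, and the gap was 0.830 of the range of the 4 libraries, just above the 95% critical value of Dixon's test. This library held 40 Tnfsf11 and 154 Tnfrsf11b counts, with an exact 95% counting interval of the ratio from 0.179 to 0.370. DEX_Ctrl library 4, which was not among the 4, was at 0.227. The test was run on 32 sets of values (7 genes and the ratio in 4 groups), and by chance alone about 1 set in 20 would be flagged.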

How the results depend on the processing

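The number of the 7 members called moved for loading in vehicle from 0 to 1 by DESeq2. For DEX in loaded tibiae it moved from 1 to 4 by DESeq2, 4 in a joint fit of the 4 groups and 0 with a background covariate, and it ran from 1 to 4 when each library was left out, with 4 without DEX_Load library 2 and 2 without Vehicle_Load library 4, Vehicle_Load library 5 or DEX_Load library 5. For DEX in unloaded tibiae it ran from 0 to 1, with 0 without Vehicle_Ctrl library 5 or DEX_Ctrl library 3. Of 679 member log2 fold changes under alternatives, 659 kept their call, 5 were lost and 15 gained; 40 changed sign, none of them called. The ratio passed in no alternative run. Leaving out each library moved its log2 difference between 0.45 and 0.88 for loading in vehicle, 0.58 and 1.10 for loading in DEX, 0.74 and 1.09 for DEX in loaded tibiae, 0.46 and 1.04 for DEX in unloaded tibiae, and -0.10 and 0.48 for the interaction. Leaving out DEX_Load library 4 in place of DEX_Ctrl library 4 gave 0.43 for loading in DEX and -0.19 for the interaction. The causes were not tested.

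Whether library numbers pair the tibiae was not stated, and correlations between same-numbered libraries were mixed and did not settle it. Deviations of same-numbered libraries from the group means correlated above 0.1 for each of the 4 DEX numbers compared (0.12 to 0.49, against -0.09 for number 4, which was left out), but for 1 of 4 vehicle numbers (-0.13 to 0.54), and 3 of 9 unloaded libraries correlated best with their own number. On the same 8 DEX libraries the block moved the genes at an unadjusted p under 0.05 from 520 to 1694, with 0 called by edgeR either way. With a replicate block the members called stayed at 0 for both loading comparisons and the interaction, and the log2 ratio difference was 0.79 in vehicle, 0.58 in DEX and -0.21 between them, where 4 pairs cannot reach p below 0.125. The block leaves out the unnumbered vehicle libraries, whose ratios were 0.122 unloaded and 0.117 loaded, and with all libraries the vehicle difference was 0.62.

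Over all genes, calls for DEX in loaded tibiae were 4206, against 31 with the background covariate, 2203 with at least 10 counts in every library, 8446 in a joint fit of the 4 groups and 9016 with no filter. For DEX in unloaded tibiae they were 1351, against 2374 by DESeq2, 2657 with the covariate and 2922 with all 20 libraries. For loading in vehicle they were 0, against 143 by DESeq2, 50 with no filter and 4 in a joint fit of the 4 groups, and for the interaction 0, against 50 by DESeq2 and 1 with no filter. Tnfsf11 rested on 15 to 55 counts per library, and the effect of depth on it was not tested.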

Other observations

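DEX_Ctrl library 4, which is in none of the comparisons, had 8436133 counts and a summed level of 1440 CPM on olfactory and vomeronasal receptor genes. It held 4.32 CPM of Tnfsf11, 19.1 of Tnfrsf11b, 14.9 of Tnfrsf11a, 61.0 of Csf1, 146 of Csf1r, 8.12 of Il34 and 32.1 of Traf6. Its ratio of Tnfsf11 to Tnfrsf11b counts was 0.227, with an exact 95% counting interval from 0.157 to 0.319.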
